A study of Mus musculus with 20 samples.

Results

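The genes described here encode a pair of growth factor systems of the liver: the EGF receptor and its ligands, and HGF with its receptor Met. They are the receptor genes Egfr and Erbb3, the 6 ligand genes Tgfa, Hbegf, Areg, Ereg, Btc and Egf, and Hgf and Met. They are a list of names with no threshold on measured values, and were found through the GENCODE symbols of the counted Ensembl identifiers. The 10 genes are part of 46603 identifiers, and all 10 passed the filter on low counts, which left 14661 genes for testing.

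Poly(A) RNA of whole liver was sequenced from male mice aged 2 months, in 20 libraries that form 4 groups of 5. Wild-type (WT) mice were C57BL/6J animals obtained from a vendor. EedHepKO mice (written KO) carried Alb:Cre, a Cre recombinase transgene under the albumin promoter, and loxP sites at exons 3 and 6 of Eed, so that the deletion is directed at hepatocytes and not at the other cells of the organ. Baseline libraries came from lobes 1, 2 and 3, which were removed at partial hepatectomy (PHx), and the later libraries came from the regrowing lobes 4, 5 and 6. In each genotype 1 liver was collected at 30 h, 2 at 40 h and 2 at 48 h after PHx. WT mice carried neither Cre nor floxed alleles per the labels and came from another source than the KO colony, so genotype, Cre and colony cannot be told apart. All mice had the same surgery and no sham operation is among the samples, so regrowth, lobe and surgery cannot be told apart either. WT libraries are numbered 1 to 5 and KO libraries 7, 8, 10, 11 and 12, after the mice.

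EED is a core subunit of polycomb repressive complex 2, which places a repressive methyl mark on histone H3. The EGF receptor is a receptor tyrosine kinase that hepatocytes carry at a high level. Its ligands are made as membrane-bound precursors, released by metalloproteases such as ADAM17, and lead to activity of the RAS-ERK and PI3K-AKT pathways. HGF is secreted as an inactive chain, mainly by stellate and other non-parenchymal cells of the liver, and after cleavage by serine proteases it activates Met on hepatocytes. Both systems are known as mitogenic signals for hepatocytes in the regrowing liver.

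Total counts ran from 21634890 to 30461351 per library. Eed measured 16.8 ± 1.09 CPM (counts scaled to the TMM-adjusted library total; SD, n = 5) in WT baseline livers and 18.4 ± 3.98 CPM after PHx, against 5.64 ± 1.44 and 4.62 ± 1.14 in KO. The liver label was met by 10 hepatocyte marker genes, which were counted in all 4 groups and summed to between 49963 and 162849 CPM in single libraries. After PHx 3 libraries stood apart from their groups in 10 marker genes of cycling cells. WT replicates 2 (40 h) and 4 (48 h) had summed levels of 37.4 and 53.6 CPM, near the 28.99 to 34.7 CPM of WT baseline livers, against 113.5 to 1159 CPM in the other WT livers after PHx. Their Mki67, a proliferation marker, was at 0.217 and 0.284 CPM, below every baseline library. KO replicate 10 (40 h) had 1019.6 CPM against 59.3 to 262 CPM in the other KO livers after PHx. Without it the number of genes called for the difference of the PHx responses went from 57 to 708. With WT replicates 2 and 4 after PHx both left out, an alternative chosen after seeing the data, the number called in the WT response went from 2950 to 1564. Results that rest on these libraries are given with and without them. The TMM factors, which correct for a few genes taking a large share of the counts, were lowest in WT at baseline (0.670 to 0.806) and reached 1.51 in KO after PHx. Scaling by library size alone moved the median log2 change of all genes from -0.03 to 0.45 for KO against WT at baseline, from -0.01 to 0.37 after PHx, from 0.04 to 0.40 for the WT response and from 0.10 to 0.37 for the KO response. Among called genes, the share of higher ones moved with it, from 69.5% to 96.9%, from 66.1% to 92.9%, from 56.8% to 86.7% and from 59.1% to 80.9%. Changes below are relative to the TMM scale. The labels number the mice, and 9 of them gave a library at both stages, so the 20 libraries do not all come from separate animals. p-values measure the spread between these libraries.

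The promoter windows of 4 members are shown, those of the receptors Egfr and Met, which were lower in KO, and of the ligands Areg and Btc, which were higher in KO at baseline. Each window runs 5′ to 3′ from 250 bases before to 50 bases after the RefSeq start, on build GRCm38.p6, the assembly that mm10 represents. Capitals mark matches to the motifs searched.
Egfr: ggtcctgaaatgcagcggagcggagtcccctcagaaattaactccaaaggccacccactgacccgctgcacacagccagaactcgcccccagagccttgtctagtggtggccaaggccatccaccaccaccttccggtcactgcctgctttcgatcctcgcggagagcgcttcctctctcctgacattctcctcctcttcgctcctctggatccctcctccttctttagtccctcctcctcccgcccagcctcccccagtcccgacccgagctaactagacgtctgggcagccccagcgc
Met: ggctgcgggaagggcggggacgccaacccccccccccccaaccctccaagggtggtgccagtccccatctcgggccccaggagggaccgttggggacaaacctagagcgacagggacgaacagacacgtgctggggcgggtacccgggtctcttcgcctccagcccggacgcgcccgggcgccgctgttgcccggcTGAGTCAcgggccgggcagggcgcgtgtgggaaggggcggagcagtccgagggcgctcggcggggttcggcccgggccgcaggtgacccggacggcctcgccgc
Areg: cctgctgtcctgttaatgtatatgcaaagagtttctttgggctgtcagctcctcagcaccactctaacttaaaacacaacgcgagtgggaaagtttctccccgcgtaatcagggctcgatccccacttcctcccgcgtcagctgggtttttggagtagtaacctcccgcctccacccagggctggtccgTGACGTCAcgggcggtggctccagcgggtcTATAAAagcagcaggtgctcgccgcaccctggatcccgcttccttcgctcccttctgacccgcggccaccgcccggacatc
Btc: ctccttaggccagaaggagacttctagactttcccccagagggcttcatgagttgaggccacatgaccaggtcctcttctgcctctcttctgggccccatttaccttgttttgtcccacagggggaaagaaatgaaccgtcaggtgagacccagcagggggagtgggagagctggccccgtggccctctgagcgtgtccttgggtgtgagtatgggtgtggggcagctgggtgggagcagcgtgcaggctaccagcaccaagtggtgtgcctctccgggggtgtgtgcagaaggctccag

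The Egfr window is chr11:16751953-16752252 on the plus strand, and the Met window is chr6:17463707-17464006 on the plus strand. The Areg window is chr5:91139349-91139648 on the plus strand, and the Btc window is chr5:91402945-91403244 on the minus strand. Both strands were searched for an AP-1 motif (TGANTCA), a cAMP response element (CRE, TGACGTCA) and a TATA box (TATAAA). Areg held a CRE at -61 to -54 and a TATA box at -31 to -26, and Met held an AP-1 motif at -54 to -48, with bases counted from the first transcribed base as 0. The windows of Egfr and Btc held none of these letters. Among 32851 RefSeq windows of this length, 7.81% held the AP-1 motif, 1.79% the CRE and 13.6% the TATA box. A match describes the letters only, since binding was not measured. The number of CpG dinucleotides was 34 in Met, 21 in Areg, 15 in Egfr and 5 in Btc, against a median of 7 over all windows. RefSeq windows were read for 7 of the 10 members, and Tgfa, Egf and Hgf held none of the 3 motifs. Ereg, Areg and Btc lie side by side on mm10 chromosome 5, as the 3 protein-coding genes of a span of 328.4 kb.

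In KO livers at baseline the receptor genes Egfr and Met were lower than in WT livers, and the ligand genes Hbegf, Areg and Btc were higher, in each case with no overlap between the 5 KO and the 5 WT libraries. The calls of Egfr and Met ended when libraries were scaled by size alone. A gene is called here where the edgeR quasi-likelihood test gave an adjusted p under 0.05 over all genes. At baseline 5 of the 10 members, which were chosen with earlier results of these data known, were called, against 16% of all genes tested. Of these, 3 were higher, against 11.1% of all genes, and 2 were lower, against 4.89%. The median log2 fold change of the 10 members was 0.62, and that of all genes tested was -0.03. Erbb3, Tgfa, Ereg, Egf and Hgf were not called.

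After PHx the genotypes also differed in 5 members. Egfr and Met were again lower in KO and Hbegf and Areg again higher, while Hgf was called higher and Btc was not called. The 5 of 10 compare with 24.2% of all genes called, the 3 higher with 16% and the 2 lower with 8.2%. The median log2 fold change was 0.08 over the members and -0.01 over all genes. Leaving out WT replicates 2 and 4 after PHx gave 6 called, the same 5 and Ereg.

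In the WT response to PHx, Egfr fell and Hbegf and Btc rose. In the KO response, Egfr fell and Hbegf and Hgf rose. Each response had 3 of 10 members called. With WT replicates 2 and 4 after PHx both left out, which leaves 3 WT livers, none of the 10 was called in WT (Egfr -0.68, adjusted p 0.280; Hbegf 1.72, 0.274; Btc 1.44, 0.0603). In WT 20.1% of all genes were called, 11.4% higher and 8.68% lower. In KO 29.5% were called, 17.5% higher and 12.1% lower. The members' share is thus close to the background in KO, and with 10 members it does not stand clear of it in WT either. The median log2 fold change of the members was 1.00 in WT, with 0.04 over all genes, and 0.37 in KO, with 0.10 over all genes. The responses are each measured against the same baseline libraries as the genotype comparison at baseline, so these comparisons share samples.

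The difference between the KO and the WT response was tested in itself, and none of the 10 members was called in edgeR, where 0.389% of all genes were. At an unadjusted p under the threshold there were 2 of 10 members, Btc and Tgfa, against 13.3% of all genes. DESeq2 called 1, Btc, and 2.56% of all genes. By the edgeR test a differing response is thus not shown for any of the 10 members.

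**Figure D1:**
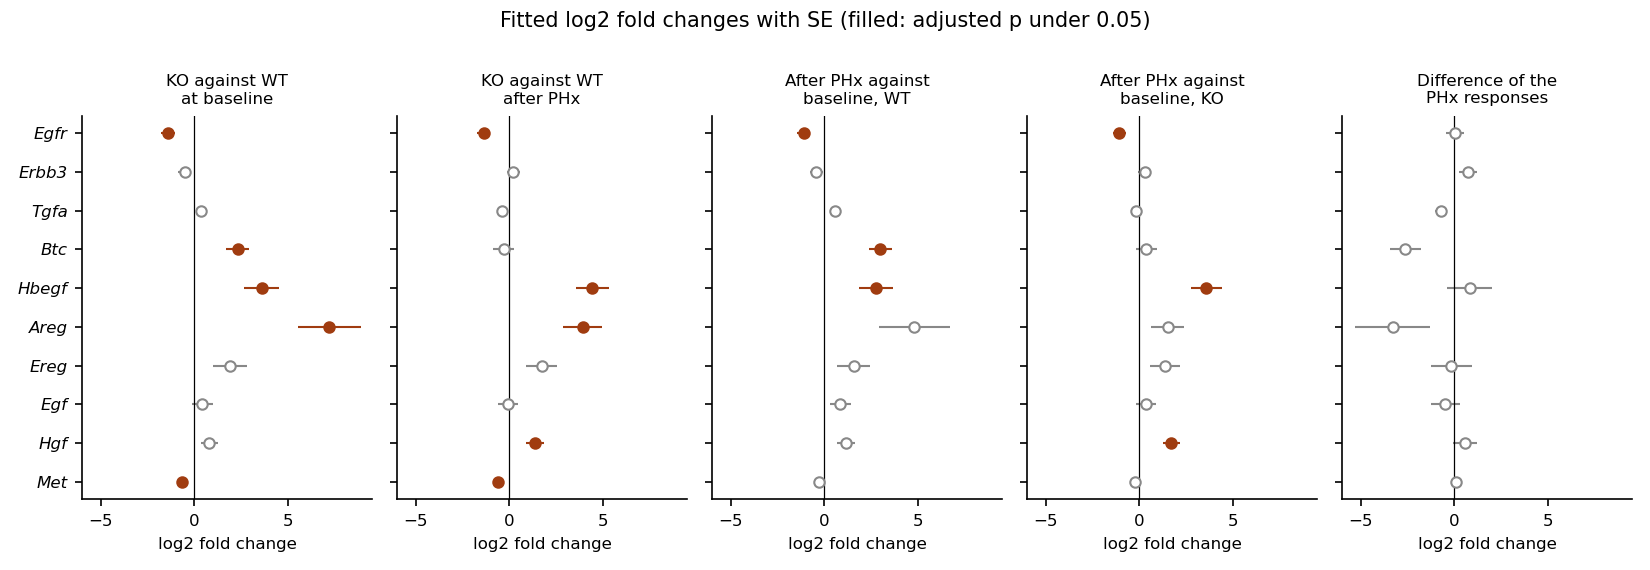
Fitted log2 fold change of each member (x axis, with SE as bars) in the 5 comparisons, with filled points for an edgeR adjusted p under 0.05. Egfr lies left of 0 in all 4 comparisons between groups and Hbegf lies right of 0, and in the difference of the responses no point is filled. The Areg value at baseline rests on a WT group at 0 and depends on the fit.

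Egfr (ENSMUSG00000020122, mm10 chromosome 11, 16752203 to 16918158) encodes the EGF receptor, the shared receptor of the 6 ligands. In WT at baseline replicates 1 to 5 had 1228, 1190.2, 1374, 1023 and 1876 CPM. At baseline KO replicates 7, 8, 10, 11 and 12 had 594, 666, 548, 295 and 403 CPM. Every KO library lay below every WT library at this stage. WT after PHx had 1037 CPM at 30 h, 255 and 422 CPM at 40 h and 441 and 953 CPM at 48 h. KO after PHx had 284 CPM at 30 h, 333 and 254 CPM at 40 h and 199 and 124 CPM at 48 h. The highest KO library after PHx exceeded only 1 WT library, replicate 2 at 40 h.

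At baseline Egfr averaged 1338 ± 326 CPM in WT and 501 ± 150.3 CPM in KO (SD, n = 5 each), a level 2.67-fold lower (log2 fold change -1.42, SE 0.35, edgeR adjusted p 0.00920). After PHx the means were 622 ± 349.8 and 239 ± 80.4 CPM (SD, n = 5 each), 2.60-fold lower (-1.38, SE 0.35, edgeR adjusted p 0.00723). Egfr fell after PHx in both genotypes, with a log2 fold change of -1.11 in WT (SE 0.35, edgeR adjusted p 0.0305) and -1.07 in KO (SE 0.35, edgeR adjusted p 0.0277). It was lower after PHx in 4 of 4 numbered WT mice and 5 of 5 KO mice. The difference of the responses was 0.04 (SE 0.49, edgeR adjusted p 0.990). The mean WT level after surgery, 622 CPM, lay near the mean KO level before surgery, 501 CPM, but these groups were not compared by a test. The WT mean rests in part on replicates 2 and 4, at 255 and 441 CPM, and the other WT livers had 1037, 422 and 953 CPM.

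The baseline call ended with library size alone (-0.93, adjusted p 0.0595), and the call after PHx ended when only the 10 libraries compared were fitted (-1.35, 0.065). The WT response was not called without WT baseline replicate 3 (adjusted p 0.0561) or 5 (0.0824), without WT replicate 2 after PHx (0.0727), 3 (0.0694) or 4 (0.106), without both 2 and 4 (-0.68, 0.280), with library size alone (0.131), without a filter (0.063) or with only the groups compared (0.0519). The KO response was not called without KO baseline replicate 7 (0.061), 8 (0.0639) or 10 (0.0525), without KO replicate 7 after PHx (0.0761) or 8 (0.0777), or with library size alone (0.066). Without KO replicate 10 after PHx the KO response was -1.22 (0.0147).

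In bulk tissue, fewer cells of a type and less RNA per cell cannot be told apart. Of 10 hepatocyte markers, 4 were called lower and none higher in KO at baseline (Cyp2e1, Serpina1c, Apob and Apoa1), against 4.89% of all genes called lower. After PHx 2 of the markers were called lower in KO, against 8.2% of all genes. In the WT response, where Egfr fell, 3 were called lower, Cyp2e1 (-2.08), Ttr (-1.34) and Serpina1c (-1.13), and in the KO response 2, Serpina1c (-1.32) and Ttr (-0.79), with none higher in either. Of all genes 8.68% were called lower in the WT response and 12.1% in the KO response. With 10 markers, counts of 2 or 3 do not stand clear of such shares. The summed level of the 10 markers was 141897 to 162849 CPM in WT and 86336 to 117387 CPM in KO at baseline. After PHx it was 87105 to 138432 CPM in WT and 49963 to 114770 CPM in KO. These sums are on the TMM scale, whose factors at baseline were 0.670 to 0.806 in WT and 0.983 to 1.19 in KO. The baseline gap between the genotypes thus depends in part on this scaling. None of the 10 was at 0 in any group, and their part in the Egfr result was not tested.

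Erbb3 (ENSMUSG00000018166, chromosome 10, 128567523 to 128589652) encodes a receptor of the same family that has little kinase activity of its own and signals as a partner of other family members. Its mean was 157 ± 52.1 CPM (SD, n = 5) in WT and 110 ± 21.7 CPM (SD, n = 5) in KO at baseline, and 115 ± 34.2 CPM (SD, n = 5) and 133 ± 81.3 CPM (SD, n = 5) after PHx. Single libraries ranged from 53.5 to 221 CPM, both ends being in KO after PHx. The groups overlapped in all 4 comparisons, and none was called (log2 fold change -0.52, edgeR adjusted p 0.336, at baseline).

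Levels of different genes are compared per kilobase of exon. On this scale Egfr had a mean of 118 CPM per kb in WT at baseline, Erbb3 26.1, Met 11.3, Tgfa 4.31, Hgf 0.769, Btc 0.314, Hbegf 0.118, Ereg 0.0533 and Egf 0.0347, and Areg had no count. In KO after PHx the order was Erbb3 at 22.2 CPM per kb, Egfr at 21.1, Hbegf at 17.3, Met at 5.96, Tgfa at 4.79, Hgf at 4.40, Btc at 2.03, Areg at 1.67, Ereg at 0.532 and Egf at 0.0613. In WT at baseline no neighbours in this order overlapped in their ranges except Hbegf with Ereg and Ereg with Egf. In KO after PHx every pair of neighbours overlapped. Hbegf, from 0.584 to 41.1 CPM per kb, overlapped 8 of the other 9 genes there, so its place in the order is not separated from theirs. Exon length was taken over all transcripts of a gene, so the per-kb levels are approximate.

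**Figure D2:**
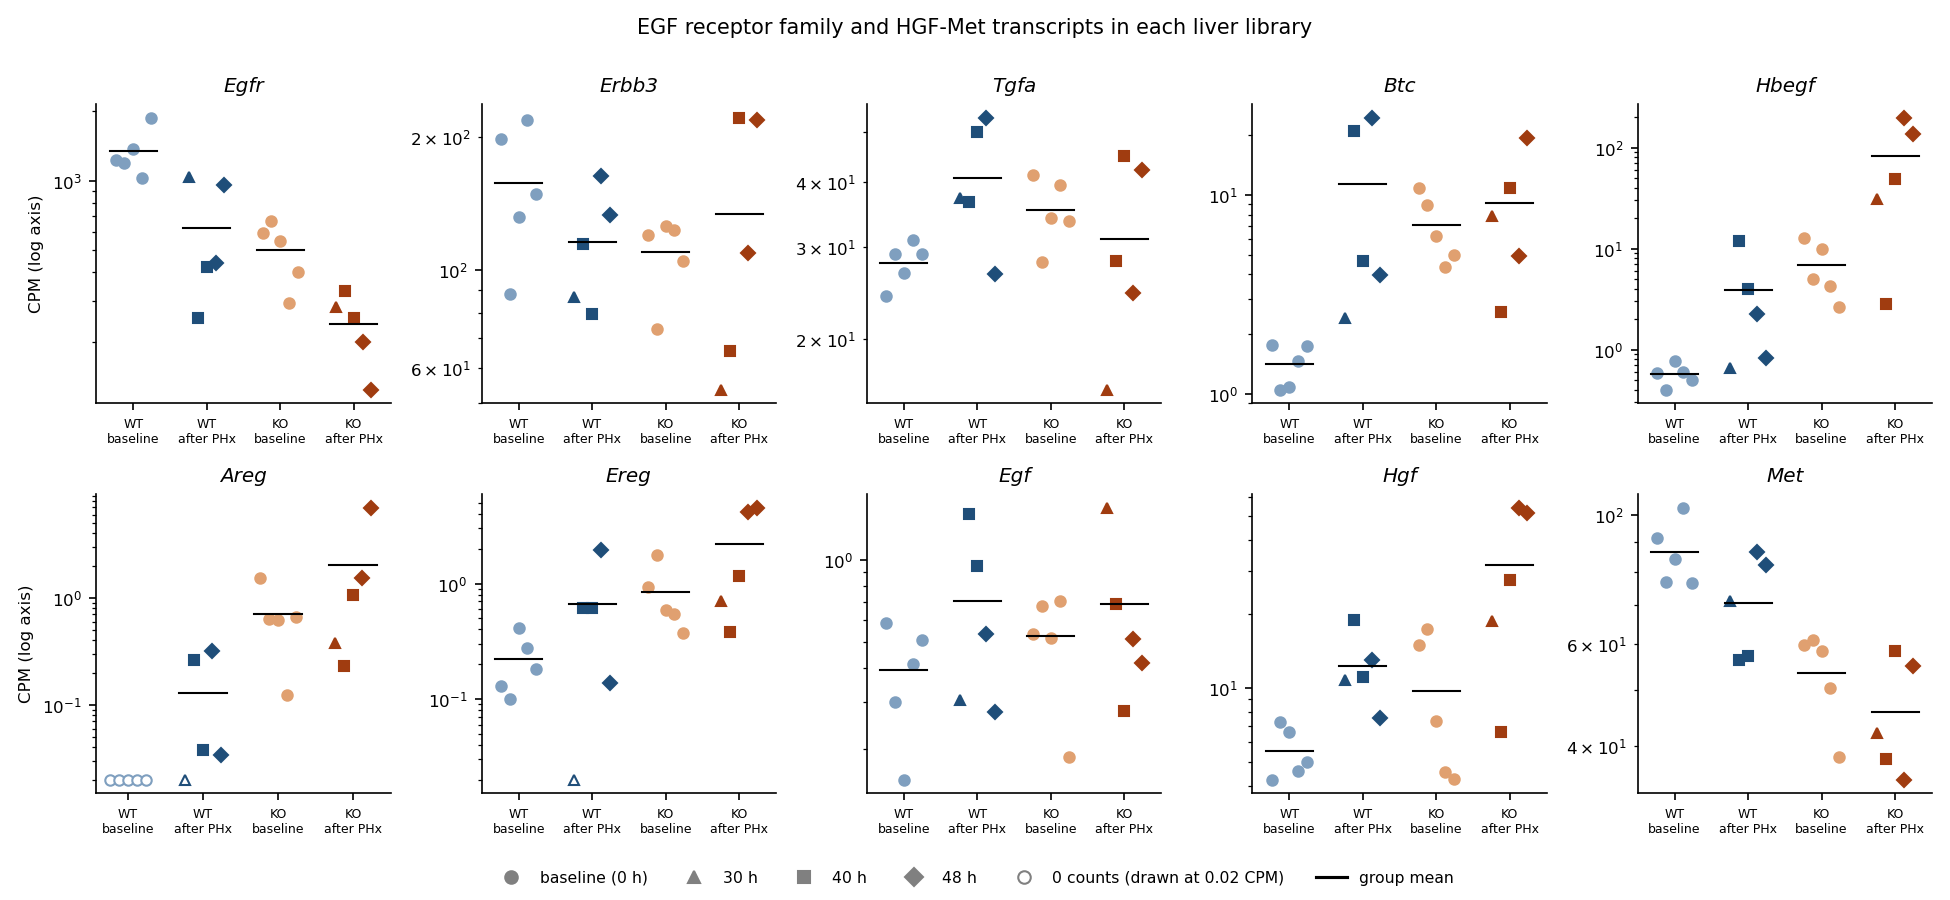
CPM of each member in each library (y axis, logarithmic) in the 4 groups, with symbols for the hours after PHx, open symbols for libraries with no count and black lines for the group means. The KO baseline points lie below the WT baseline points for Egfr and Met and above them for Hbegf, Areg and Btc, and Hbegf spans 2.82 to 199 CPM in KO after PHx.

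The make-up of the EGF receptor ligand RNA is given per library as a description. The summed level of the 6 ligands had a median of 4.84 CPM per kb in WT at baseline (range 4.31 to 5.31), 9.79 in WT after PHx (5.23 to 14.9), 8.36 in KO at baseline (7.48 to 12.9) and 20.7 in KO after PHx (5.85 to 48.3). At baseline the lowest KO library was above the highest WT library. Tgfa made up a median of 88.9% of the sum in WT at baseline, 78.3% in WT after PHx, 55.9% in KO at baseline and 21.8% in KO after PHx. Its ranges were 86.2% to 92.4%, 42.6% to 89.2%, 49.1% to 74.0% and 7.81% to 74.4%, so that the WT and KO groups did not overlap at baseline and did after PHx. Hbegf made up medians of 2.32%, 3.26%, 12.4% and 57.2% in the same order, with ranges of 1.71% to 3.45%, 2.10% to 18.4%, 7.27% to 22.02% and 9.98% to 85.1%, which again overlapped between the genotypes after PHx only. The Tgfa level itself differed less than its share, with group means between 4.31 and 6.27 CPM per kb. These sums and shares describe the libraries and carry no test. KO replicate 10 after PHx was the exception in its group, with the lowest sum, 5.85 CPM per kb, and the highest Tgfa share, 74.4%.

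**Figure D3:**
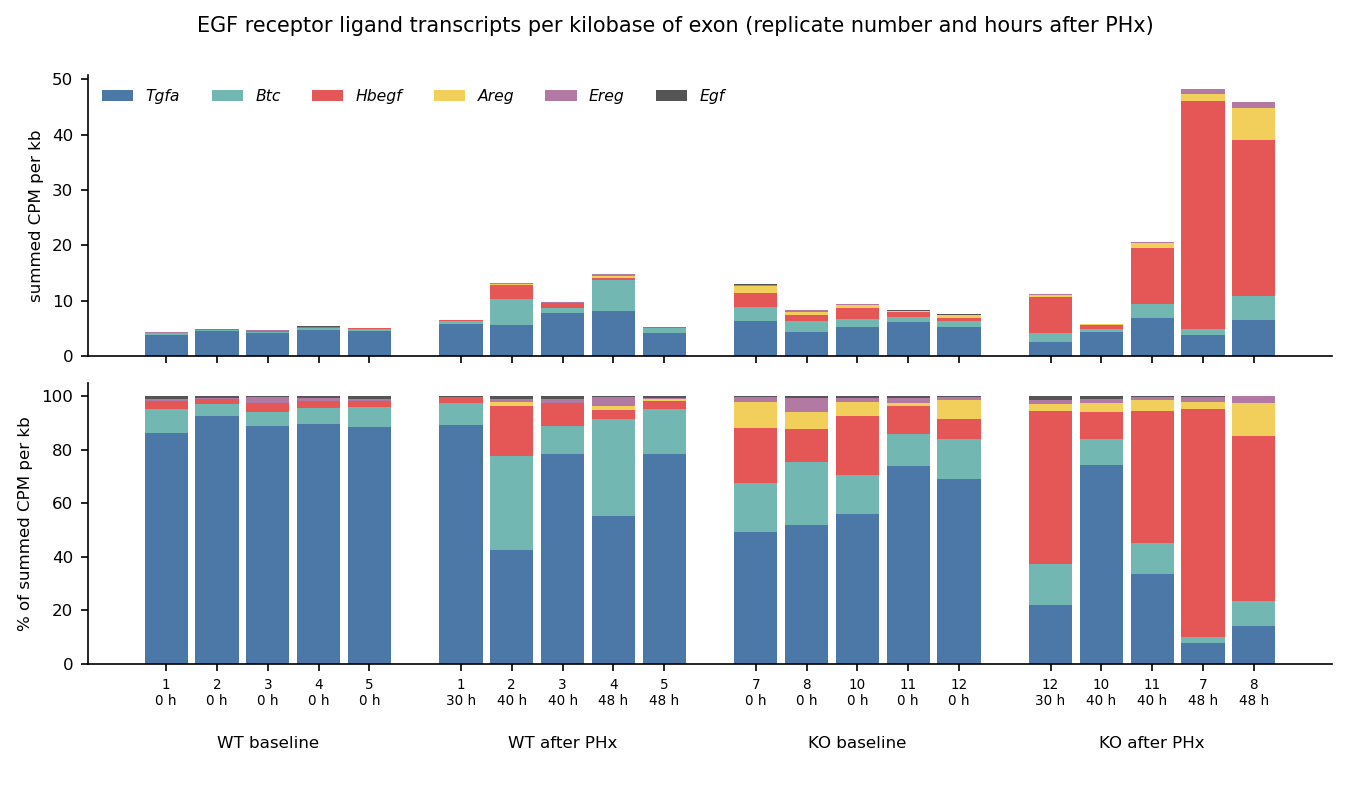
EGF receptor ligand RNA in each library as summed CPM per kb of exon (upper bars) and as a percentage of that sum (lower bars), by replicate number and hours after PHx. Tgfa fills 86.2% to 92.4% of each WT baseline bar, and Hbegf reaches 85.1% in KO replicate 7 after PHx.

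Tgfa (ENSMUSG00000029999, chromosome 6, 86195223 to 86275719) encodes TGF alpha, a ligand that hepatocytes themselves can make. It had 27.97 ± 2.62 CPM (SD, n = 5) in WT and 35.3 ± 5.21 CPM (SD, n = 5) in KO at baseline, and 40.7 ± 10.8 CPM (SD, n = 5) and 31.1 ± 12.2 CPM (SD, n = 5) after PHx. No comparison was called, and the groups overlapped in each. Its log2 change was 0.54 in the WT response (SE 0.23, edgeR adjusted p 0.109) and -0.18 in the KO response (SE 0.23, edgeR adjusted p 0.574). The difference of the responses was -0.72 (SE 0.33, edgeR adjusted p 0.349; unadjusted p 0.0412). The WT response was called with library size alone (0.89, adjusted p 0.0313), with only the groups compared (0.58, 0.0397) and without WT replicate 5 after PHx (0.71, 0.0312), and the baseline difference with only the groups compared (0.36, 0.024).

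Hbegf (ENSMUSG00000024486, chromosome 18, 36504927 to 36515805) encodes heparin-binding EGF-like growth factor, a ligand of the EGF receptor and of ErbB4. In WT at baseline replicates 1 to 5 had 0.585, 0.400, 0.772, 0.596 and 0.505 CPM, from 8 to 15 counts each. In KO at baseline replicates 7, 8, 10, 11 and 12 had 12.8, 5.03, 10.001, 4.24 and 2.63 CPM. No KO library was under 2.63 CPM and no WT library above 0.772 CPM at this stage. WT after PHx had 0.654 CPM at 30 h, 11.8 and 3.96 CPM at 40 h and 2.27 and 0.824 CPM at 48 h. KO after PHx had 31.1 CPM at 30 h, 2.82 and 49.2 CPM at 40 h and 199 and 136 CPM at 48 h. Apart from replicate 10, at 2.82 CPM, each KO library after PHx exceeded every WT library.

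At baseline Hbegf was 12.2-fold higher in KO (6.95 ± 4.29 against 0.572 ± 0.137 CPM, SD, n = 5 each; log2 fold change 3.60, SE 0.92, edgeR adjusted p 0.0113). After PHx it was 21.5-fold higher (83.7 ± 81.4 against 3.90 ± 4.61 CPM, SD, n = 5 each; 4.43, SE 0.88, edgeR adjusted p 0.00119). The KO response was a rise by a log2 fold change of 3.58 (SE 0.85, edgeR adjusted p 0.00518), seen in 4 of 5 mice. In mouse 10 the level went from 10.001 to 2.82 CPM. The WT response was a rise of 2.76 (SE 0.91, edgeR adjusted p 0.0384), seen in 4 of 4 numbered mice. The difference of the responses was 0.83 (SE 1.21, edgeR adjusted p 0.822). Without KO replicate 10 after PHx the genotype difference after PHx was 4.74 (adjusted p 0.000114) and the KO response 3.89 (0.000588). The size of the difference after PHx rests on single libraries: it was 5.43 (0.000448) without WT replicate 2 and 3.84 (0.0033) without KO replicate 7 after PHx, and the KO response was 2.97 (0.017) without the latter.

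Both genotype differences and the KO response of Hbegf were called under all the alternatives run. The WT response was not: it was lost with the mouse as a replicate block (2.48, adjusted p 0.12), without any 1 of WT baseline replicates 1 to 5 (adjusted p 0.0707, 0.0809, 0.0651, 0.074 and 0.0771) and without WT replicate 2 after PHx (1.75, 0.182) or 3 (2.75, 0.0537), and without both 2 and 4 (1.72, 0.274). It was smaller with a term for the time point (2.12, 0.0348). Replicate 2 holds the highest WT value, 11.8 CPM.

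Areg (ENSMUSG00000029378, chromosome 5, 91139599 to 91148432) encodes amphiregulin, a ligand of the EGF receptor alone. None of the 5 WT baseline libraries held a count, which allows up to 3 counts over the group. At baseline KO replicates 7, 8, 10, 11 and 12 had 46, 15, 18, 3 and 14 counts, or 1.53, 0.634, 0.621, 0.125 and 0.657 CPM. All KO libraries thus held the transcript, at a low level. WT after PHx had 0 CPM at 30 h, 0.261 and 0.0380 CPM at 40 h and 0.319 and 0.0343 CPM at 48 h, which is 17 counts in all. Of these, replicates 2 and 4 held 6 and 9. KO after PHx had 0.379 CPM at 30 h, 0.229 and 1.06 CPM at 40 h and 1.53 and 6.96 CPM at 48 h. The groups after PHx overlapped, since the lowest KO library lay under the highest pair of WT libraries.

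Mean Areg at baseline was at least 23.4-fold higher in KO than the level that 3 counts over the WT group would give (edgeR adjusted p 0.00809). After PHx it was 15.6-fold higher in KO (2.03 ± 2.81 against 0.130 ± 0.148 CPM, SD, n = 5 each; log2 fold change 3.92, SE 1.03, edgeR adjusted p 0.0116). Neither response to PHx was called: in WT the mean after PHx was at least 4.28-fold that of the same floor (edgeR adjusted p 0.0829), and in KO the change was 1.51 on the log2 scale (SE 0.90, edgeR adjusted p 0.209). KO replicate 8 after PHx held 317 of the 420 counts of its group, and without it the KO change was 0.14 (adjusted p 0.915). It was 0.79 with a term for the time point (0.417) and with the mouse as a replicate block (0.536). The baseline call was kept in all 14 alternatives that tested the gene. The call after PHx was lost without KO replicate 8 after PHx (2.55, adjusted p 0.0545). It was kept with WT replicates 2 and 4 after PHx left out (adjusted p 0.00737), where the fitted difference of 6.01 rests on WT libraries with 0 to 1 count each and depends on the fit, and DESeq2 called the WT response (adjusted p 0.0228).

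Btc (ENSMUSG00000082361, chromosome 5, 91357261 to 91402994) encodes betacellulin, a ligand of the EGF receptor and of ErbB4. In WT at baseline replicates 1 to 5 had 1.76, 1.05, 1.08, 1.47 and 1.74 CPM. In KO at baseline replicates 7, 8, 10, 11 and 12 had 10.9, 8.96, 6.21, 4.36 and 5.02 CPM, all above every WT library. WT after PHx had 2.40 CPM at 30 h, 21.1 and 4.68 CPM at 40 h and 24.6 and 3.98 CPM at 48 h, also all above every WT baseline library. KO after PHx had 7.91 CPM at 30 h, 2.59 and 10.9 CPM at 40 h and 4.94 and 19.5 CPM at 48 h. These last values overlapped both the KO baseline and the WT group after PHx.

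Btc was 4.99-fold higher in KO at baseline (7.08 ± 2.74 against 1.42 ± 0.343 CPM, SD, n = 5 each; log2 fold change 2.32, SE 0.61, edgeR adjusted p 0.0127). It rose 8.00-fold in the WT response, to 11.4 ± 10.6 CPM (SD, n = 5; 3.00, SE 0.62, edgeR adjusted p 0.00272), in 4 of 4 numbered mice. The KO response was not called (0.38, SE 0.56, edgeR adjusted p 0.634), with a higher level in 3 of 5 mice. After PHx the genotypes did not differ by the test (-0.30, SE 0.56, edgeR adjusted p 0.730). The difference of the responses was -2.62 (SE 0.82, unadjusted p 0.00461, edgeR adjusted p 0.173). DESeq2 called this difference (-2.66, adjusted p 0.041), and over 27 alternatives its adjusted p ran from 0.041 to 0.317. The baseline difference was called under every alternative run. The WT response was called in 18 alternatives, but its highest values, 21.1 and 24.6 CPM, are WT replicates 2 and 4. With both left out it was 1.44 (adjusted p 0.0603), the difference of the responses was -1.12 (0.358), and the genotype difference after PHx changed sign to 1.26 (0.0638).

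Ereg and Egf were near the lowest levels that were tested. Ereg (ENSMUSG00000029377, chromosome 5, 91074622 to 91093646) encodes epiregulin and had 22 counts over the 5 WT baseline libraries, 89 in WT after PHx, 108 in KO at baseline and 413 in KO after PHx. Its mean was 0.220 ± 0.126 CPM (SD, n = 5) in WT and 0.841 ± 0.559 CPM (SD, n = 5) in KO at baseline, and 0.661 ± 0.771 CPM (SD, n = 5) and 2.19 ± 2.00 CPM (SD, n = 5) after PHx. The highest values, 4.17 and 4.55 CPM, were the KO libraries at 48 h. No comparison was called (baseline log2 fold change 1.90, edgeR adjusted p 0.151; after PHx 1.72, edgeR adjusted p 0.131). After PHx the difference was called with a term for the time point (2.41, adjusted p 0.0208) and without WT replicate 4 after PHx (2.62, 0.0304) or without both 2 and 4 (3.04, 0.0274). The WT change, 1.56, was 0.35 with the time term and 0.66 without WT replicate 4. Egf (ENSMUSG00000028017, chromosome 3, 129677565 to 129755316), which encodes the founding ligand of the family, had 3 to 34 counts per library, with group means between 0.391 and 0.708 CPM, and no comparison was called. The strand setting of the counting is not given, and genes on the opposite strand overlap exons of Egf (607 and 500 bases), Ereg (141 bases) and Tgfa (118 bases).

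Hgf (ENSMUSG00000028864, chromosome 5, 16553495 to 16620152) encodes hepatocyte growth factor, the ligand of Met. In WT at baseline replicates 1 to 5 had 4.23, 7.25, 6.59, 4.59 and 5.00 CPM. In WT after PHx the values were 10.8 CPM at 30 h, 18.96 and 11.1 CPM at 40 h and 13.01 and 7.52 CPM at 48 h, all above every WT baseline library. At baseline KO replicates 7, 8, 10, 11 and 12 had 14.9, 17.3, 7.31, 4.53 and 4.27 CPM, of which the last 3 lay in or next to the WT range. KO after PHx had 18.7 CPM at 30 h, 6.64 and 27.5 CPM at 40 h and 54.1 and 51.3 CPM at 48 h. The lowest of these was again replicate 10, and the 2 highest were the libraries at 48 h.

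Hgf rose 3.27-fold in the KO response, from 9.67 ± 6.06 to 31.6 ± 20.6 CPM (SD, n = 5 each; log2 fold change 1.71, SE 0.47, edgeR adjusted p 0.0121), in 4 of 5 mice. In WT the level went from 5.53 ± 1.32 to 12.3 ± 4.23 CPM (SD, n = 5 each) and was higher in 4 of 4 numbered mice, but the change was not called (1.15, SE 0.47, edgeR adjusted p 0.0893). It was called with library size alone (1.48, adjusted p 0.034), in DESeq2 (1.18, 0.0449) and with only the groups compared (1.19, 0.00931). With WT replicates 2 and 4 after PHx left out it was 0.88 (0.329). The difference of the responses was 0.56 (SE 0.65, edgeR adjusted p 0.770). KO exceeded WT after PHx by 2.58-fold (1.37, SE 0.47, edgeR adjusted p 0.0375) and did not differ by the test at baseline (0.81, SE 0.47, edgeR adjusted p 0.254).

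The call after PHx was lost in 8 of 17 alternatives. These were only the groups compared (1.38, adjusted p 0.104), without WT replicate 1 after PHx (0.0734), 3 (0.0714), 4 (0.0597) or 5 (0.089), and without KO replicate 7 after PHx (1.11, 0.106), 8 (1.10, 0.113) or 11 (0.0548). Without replicate 10 it was 1.62 (0.00476), and the KO response was 1.97 (0.00138). The KO response had an adjusted p of 0.0501 with only the groups compared. A gene of unknown coding status on the same strand overlaps 484 exonic bases of Hgf.

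Markers of stellate cells, a main source of HGF in the liver, also moved between the groups. Of 12 such markers, 5 were called higher and none lower in KO at baseline, against 11.1% of all genes called higher. After PHx 3 were called higher in KO, as Hgf was, against 16% of all genes: Colec11 (1.26), Cygb (1.15) and Dcn (1.13). Cygb was called higher in the WT response (0.65, edgeR adjusted p 0.0462). There 2 were called lower, against 8.68% of all genes, Colec11 (-1.64) and Angptl6 (-2.23). None was called higher and 5 were called lower, against 12.1% of all genes, in the KO response, in which Hgf rose. The summed level was 273 to 427 CPM in WT and 547 to 714 CPM in KO at baseline, and 194 to 348 CPM and 325 to 650.3 CPM after PHx. No marker of the list was at 0 in any group. Their part in the Hgf result was not tested.

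Met (ENSMUSG00000009376, chromosome 6, 17463800 to 17573980) encodes the HGF receptor. In WT at baseline replicates 1 to 5 had 91.6, 76.7, 84.2, 103 and 76.6 CPM. In KO at baseline replicates 7, 8, 10, 11 and 12 had 59.9, 61.0, 58.4, 50.3 and 38.4 CPM, all below every WT library. WT after PHx had 71.3 CPM at 30 h, 56.3 and 57.2 CPM at 40 h and 86.5 and 82.1 CPM at 48 h. KO after PHx had 42.2 CPM at 30 h, 38.1 and 58.3 CPM at 40 h and 35.03 and 55.1 CPM at 48 h, so that 1 KO library reached above 2 WT libraries.

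Met was 1.61-fold lower in KO at baseline (53.6 ± 9.49 against 86.4 ± 11.2 CPM, SD, n = 5 each; log2 fold change -0.69, SE 0.18, edgeR adjusted p 0.0122) and 1.55-fold lower after PHx (45.8 ± 10.4 against 70.7 ± 13.9 CPM, SD, n = 5 each; -0.63, SE 0.18, edgeR adjusted p 0.0152). Neither response was called (WT -0.29, edgeR adjusted p 0.266; KO -0.23, edgeR adjusted p 0.338), and the difference of the responses was 0.06 (SE 0.25, edgeR adjusted p 0.948). The size of the genotype difference depends on the scaling. With library size alone it was -0.20 at baseline (adjusted p 0.571) and -0.22 after PHx (0.542), where the median of all genes stood at 0.45 and 0.37. After PHx it was also lost with only the groups compared (-0.60, 0.118) and without KO replicate 7 after PHx (-0.51, 0.0633).

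**Figure D4:**
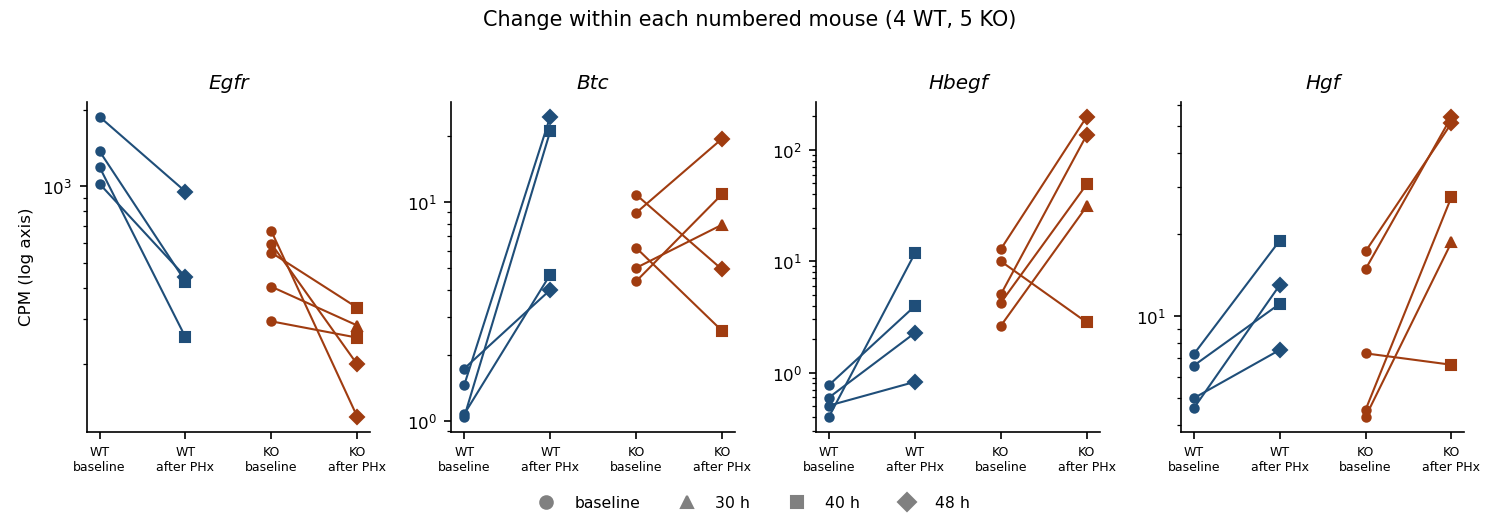
CPM at baseline and after PHx (y axis, logarithmic) of Egfr, Btc, Hbegf and Hgf in the 9 mice with a number in both titles, with 1 line per mouse and symbols for the hours after PHx. Egfr falls on every line, Btc rises on all 4 WT lines and 3 of 5 KO lines, and the single falling KO line for Hbegf and Hgf is mouse 10.

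Other genes of the same pathways were taken from lists. Their counts stand beside 16% of all genes called at baseline, 24.2% after PHx, 20.1% in the WT response and 29.5% in the KO response, and with 6 to 25 genes tested in a list, nothing particular to a list is read from them. The first list holds other ErbB receptors and ligands together with Mst1 and Mst1r, an HGF-like protein and its receptor of the Met family. Among 6 tested of 9, 2 were called higher and none lower in KO at baseline, and 3 higher and 2 lower after PHx. Nrg1, which encodes the neuregulin ligand of ErbB3 and ErbB4, had a mean of 0.104 CPM in WT and 3.42 CPM in KO at baseline (log2 fold change 4.99) and Mst1r 0.124 and 0.968 CPM (2.87). Erbb2, which encodes the preferred partner of the other ErbB receptors, had a mean of 0.685 CPM in WT and 19.8 CPM in KO after PHx (4.85, edgeR adjusted p 2.2e-05). After PHx Mst1r (3.69) and Nrg1 (1.67) were also higher in KO, with Mst1r at 5.00 (adjusted p 0.00114) when WT replicates 2 and 4 after PHx were left out. Nrg4, the neuregulin that signals through ErbB4, was lower there, at 12.4 against 44.8 CPM (-1.85, edgeR adjusted p 0.0117). That call was lost without WT replicate 4 after PHx (-0.83, adjusted p 0.0671) and with only the groups compared (-1.84, 0.0968). It was also lost without both WT replicates 2 and 4 after PHx (-0.74, 0.125). Leaving out this pair also lowered the Nrg4 change of the WT response to 3.08 (adjusted p 5.14e-05).

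In the WT response of this list 2 were called higher, Nrg1 (4.34) and Nrg4 (4.18, from 2.47 to 44.8 CPM), and 1 lower, Erbb4 (-2.73, from 4.23 to 0.633 CPM). In the KO response 3 were higher, Erbb2 (3.32), Nrg4 (2.32) and Mst1r (1.85), and 1 lower, Mst1 (-0.89). The Mst1r call in the KO response was lost in 9 of 18 alternatives (adjusted p up to 0.135), 7 of them without 1 library: KO baseline replicate 7, 8, 10 or 11, or KO replicate 7, 8 or 11 after PHx. For the difference of the responses none of the list was called. With KO replicate 10 after PHx left out this count was 2, as in DESeq2 and with the time term, and with KO replicate 12 after PHx left out it was 1.

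Genes of ligand release encode the metalloproteases and the inactive rhomboid proteins that carry ADAM17 to the cell surface. Of 9 tested of 11, 2 were called higher and none lower in KO at baseline (against 16% of all genes called), Adam15 (1.81, with means of 1.81 CPM in WT and 6.38 CPM in KO) and Rhbdf1 (1.70, from 3.10 to 10.1 CPM). Rhbdf1 was the 1 of 9 called after PHx (0.96, against 24.2% of all genes called), and with only the groups compared it was not (adjusted p 0.0989). Adam15 (2.20), Rhbdf1 (1.98) and Rhbdf2 (1.90) were higher in the WT response, and Rhbdf2 (1.61), Rhbdf1 (1.23) and Adam15 (0.89) in the KO response. The count for KO against WT after PHx rose to 3 without WT replicate 2 after PHx or KO replicate 10 after PHx, and to 2 without WT replicate 4 after PHx. It was also 3 with WT replicates 2 and 4 left out together, where Rhbdf2 was not called in the WT response (1.26, adjusted p 0.0523). For the difference of the responses none of the list was called by the edgeR test with 4 group means, and 1 was with the time term and in DESeq2.

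The list of HGF activation holds the serine proteases that cleave the HGF precursor and their inhibitors, with 12 tested of 13. At baseline 3 were called higher in KO, Plat (3.90), St14 (2.88) and Spint1 (2.53), and none lower. After PHx 4 were higher and 1 lower. Plat, which encodes tissue plasminogen activator, had a mean of 5.27 CPM in WT and 254.6 CPM in KO after PHx (5.59, edgeR adjusted p 0.000326). St14, which encodes matriptase, had 0.574 and 30.3 CPM (5.71). Spint1, an inhibitor of HGF-activating proteases, had 0.246 and 36.1 CPM (7.19, edgeR adjusted p 9.5e-06). Plaur, the urokinase receptor, had 6.48 and 36.3 CPM (2.49). The changes thus include an inhibitor as well as proteases.

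In the WT response 3 of this list were called higher, among them Plaur (4.48) and Plat (3.47), and 2 lower, among them Hgfac (-1.43, from 197 to 73.4 CPM), which encodes the HGF activator made by hepatocytes. In the KO response 5 were higher and 4 lower, led by Plat (5.17), Spint1 (4.86), Plaur (4.51) and St14 (3.32). None was called for the difference of the responses. That count was 1 with KO replicate 10 or KO replicate 12 after PHx left out, and in DESeq2. Only 1 of the list was called in the WT response with WT replicates 2 and 4 after PHx left out, Hgfac, while Plaur (2.95, adjusted p 0.0564) and Plat (2.48, 0.144) were not. Calls were lost for Spint1 at baseline in 8 of 16 alternatives, each without 1 library (adjusted p up to 0.101: WT baseline replicates 2 to 5 and KO baseline replicates 7, 10, 11 and 12), and for Plaur after PHx in 6 of 17 (up to 0.173: WT replicates 1, 3 and 5 after PHx, KO replicates 7 and 8 after PHx, and only the groups compared). The differences after PHx were 4.00 for Plaur (adjusted p 0.0077) and 6.56 for Plat (0.00124) with WT replicates 2 and 4 after PHx left out. The count for KO against WT after PHx fell to 3 without WT replicate 3 or 5 after PHx or KO replicate 7 or 8 after PHx.

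Of the cytoplasmic adaptors and kinases of the pathways, 3 of 25 tested were called at baseline and 4 after PHx, against 16% and 24.2% of all genes. At baseline 1 was called higher (Gab2, 1.504) and 2 lower (Pik3ca, -0.79, and Sos1, -0.74) in KO, and 3 higher (Gab2, 2.07, Gab1, 1.33, and Cbl, 0.86) and 1 lower (Map2k2, -0.50) after PHx. In the WT response 4 were higher, Cblb (2.23), Stat3 (1.03), Akt1 (0.65) and Ptpn11 (0.56). In the KO response 8 were higher, led by Cblb (2.47), Gab2 (1.65), Stat3 (0.98) and Sos2 (0.91), and none was lower in either. The 8 of 25 compare with 17.5% of all genes called higher in KO, and the 4 of 25 with 11.4% in WT. The median log2 change of the list was 0.38 in the KO response, with 0.10 over all genes, and 0.00 in the WT response, with 0.04 over all genes. Cblb encodes a ubiquitin ligase that acts on activated receptors. These counts depend on single libraries. With 1 library left out they ran from 0 to 2 at baseline, from 2 to 9 after PHx, from 2 to 4 in WT and from 3 to 14 in KO, with both the 9 and the 14 reached without KO replicate 10 after PHx. With the mouse as a replicate block 1 was called in WT and 4 in KO. Leaving out WT replicates 2 and 4 after PHx gave 0 in WT, with Cblb at 0.20 (adjusted p 0.862) and Stat3 at 0.93 (0.0512), and Gab2 at 2.85 (0.00122) for KO against WT after PHx. Of the 15 calls named here, those of Stat3 and Cblb in the KO response held under all the alternatives run.

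The list of feedback inhibitors had 19 tested of 20. In KO at baseline 2 were called higher, Dusp5 (3.38, from 1.45 to 15.2 CPM), an ERK phosphatase, and Spry1 (1.48, from 3.73 to 10.4 CPM), and none lower. After PHx 7 were higher and none lower, led by Spred3 (2.94), Dusp5 (2.14), Spry2 (2.11) and Spry1 (1.48). In the WT response 2 were higher and 3 lower, with Dusp5 (2.48) up and Dusp1 (-1.89), Spry4 (-1.73) and Dusp6 (-1.14) down. In the KO response 4 were higher and 2 lower, with Spred3 (4.12) and Dusp10 (1.54) up and Dusp1 (-2.01) and Dusp6 (-1.45) down. The call of Spred3 after PHx was lost in 6 of 17 alternatives (adjusted p up to 0.145: WT replicates 1, 3 and 5 after PHx, KO replicates 7 and 8 after PHx, and only the groups compared). Without KO replicate 8 after PHx its difference was 1.98 (adjusted p 0.132). The values after PHx were 4.19 for Spred3 (adjusted p 0.0159) and 3.26 for Dusp5 (0.00209) with WT replicates 2 and 4 after PHx left out, and Dusp1 in the WT response was then -2.64 (0.00443). With only the groups compared, Dusp5 (adjusted p 0.0772) and Spry1 (0.0532) were not called after PHx. The block by mouse ended the call of Spred3 in KO (2.66, adjusted p 0.159), and library size alone that of Dusp6 in WT (-0.77, 0.0507). The total in the WT response went from 5 to 8 without WT replicate 5 after PHx and to 2 without both WT replicates 2 and 4 after PHx, where Dusp5 was not called (1.38, adjusted p 0.151). The KO total went from 6 to 10 without KO replicate 10 after PHx, and the lowest total with 1 library left out was 4.

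Genes that respond to ERK activity had 18 tested of 19. In KO at baseline 7 were called higher and none lower, with a median log2 fold change of 1.35 against -0.03 for all genes. They include Ccnd1 (3.23, with means of 22.9 CPM in WT and 216 CPM in KO), which encodes cyclin D1, and Egr2 (3.40, from 0.912 to 9.68 CPM), an early-response transcription factor. Epha4 (3.85) was also higher, and Etv4 was at 0 counts in WT and had 0.393 CPM in KO. The count of 7 fell to 4 without WT baseline replicate 1, 3 or 5 and to 3 without KO baseline replicate 11, and the Etv4 call was lost in 9 of 15 alternatives (adjusted p up to 0.0767), in each case without 1 of the WT baseline replicates or KO baseline replicate 7, 8, 10 or 11. After PHx 4 were higher and none lower, Epha4 (4.17), Spry2 (2.11), Spry4 (1.20) and Spred1 (1.06).

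The responses of this list went both ways. In WT 5 were called higher and 5 lower, and in KO 7 higher and 6 lower. Fosl1, an AP-1 subunit gene, was higher in both (7.31 in WT and 4.43 in KO), as was Etv4, while Fos, the gene of another AP-1 subunit, was lower in both (-3.06 in WT, from 44.7 to 5.35 CPM, and -3.75 in KO, from 194 to 14.3 CPM). Ier3 was higher in WT (4.76) and Egr2 lower in KO (-3.34). None was called for the difference of the responses, against 1 without KO replicate 10 after PHx. Without KO baseline replicate 12 the KO count was 8. With the mouse as a replicate block the WT response had 6 called, and Fos was not among them (adjusted p 0.115). With a term for the time point Fosl1 was not called in WT. With WT replicates 2 and 4 after PHx left out 5 were called in WT, Fosl1 (5.08, adjusted p 0.0769) and Ier3 (3.13, 0.0765) not among them, and 8 in KO against WT after PHx. The feedback inhibitor list shares members with this list, Spred1, Dusp6, Spry2 and Spry4.

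Other processing choices also moved the list counts by over 1.5 times. With library size alone the counts called at baseline rose from 7 to 13 for the ERK-responsive genes, from 3 to 5 for HGF activation, from 2 to 6 for the feedback inhibitors, from 3 to 6 for the adaptors and from 2 to 4 for ligand release. That scaling also gave 10 adaptors after PHx, 10 in the WT response and 13 in the KO response, and 4 genes of ligand release after PHx and 5 in the WT response. With only the groups compared the baseline counts were 8 for HGF activation, 7 for the adaptors, and 5 each for the feedback inhibitors and ligand release. After PHx that fit gave 3 each for the ErbB list, HGF activation and the feedback inhibitors, and 0 each for the adaptors and ligand release. Adaptors came to 7 in WT and 4 in KO in it. DESeq2 called 5 genes of HGF activation and 4 feedback inhibitors at baseline, and 1 gene of ligand release for the difference of the responses, as did the time term. The time term gave 2 genes of ligand release after PHx and 7 adaptors in WT, and without a filter 1 adaptor was called at baseline, 2 after PHx and 4 in KO.

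Markers of the other cell types that whole liver holds were counted as well. Their counts stand beside 11.1% of all genes called higher and 4.89% lower at baseline, and 16% and 8.2% after PHx. In the WT response 11.4% were higher and 8.68% lower, and in the KO response 17.5% and 12.1%. Lists held 4 to 12 tested genes, and counts such as 1 of 12 sinusoidal endothelial markers at each stage are near these shares. At baseline KO had more RNA of Kupffer cell and macrophage markers, with 6 of 12 called higher and summed levels of 628 to 804 CPM against 240 to 411 CPM in WT. After PHx 4 of the 12 were called higher in KO, C1qa (0.93), C1qb (0.92), Csf1r (0.87) and C1qc (0.82), with 185 to 547 CPM against 101 to 487 CPM in WT. Marco rose in both responses (3.89 in WT and 2.42 in KO). Besides it, Cd68 rose (1.34) and Csf1r fell (-0.90) in WT, and 4 fell in KO, led by Lyz2 (-1.63), Adgre1 (-1.61) and Clec4f (-1.36). Of the cholangiocyte markers 1 of 8 tested was called higher in KO at baseline, Spp1 (2.32, edgeR adjusted p 0.0237), with summed levels of 128 to 441 CPM against 90.9 to 141 CPM in WT. Summed, these markers were at 178 to 633 CPM in KO after PHx against 81.3 to 318 CPM in WT after PHx, with 4 of 8 called higher, among them Epcam (4.22) and Krt19 (3.02). They also moved with the KO response, in which Hbegf and Hgf rose: 3 of 8 were called higher, Krt7 (2.98), Epcam (2.93) and Krt19 (2.59). None of the 8 was called in the WT response. Of 12 sinusoidal endothelial markers 1, Cdh5, was called higher in KO at each stage (0.57 and 0.51). In both responses Kdr (-1.60 in WT and -1.63 in KO) and Oit3 (-1.38 and -1.49) fell. The WT response had 3 lower and none higher, with Fcgr2b (-1.04) as the third, and the KO response 4 lower and 1 higher, Lyve1 (2.51). Lymphocyte markers were low, at most 5.11 CPM in sum, with none of 4 tested called between genotypes, 2 called lower in the WT response (Ms4a1 and Nkg7) and 3 in the KO response (these and Gzma). Mesothelial markers reached 4.26 CPM in sum, and 1 of 4 tested was called higher in KO at each stage, Msln (4.06) at baseline and Wt1 (3.28) after PHx. Msln (4.98) and Upk3b (4.47) rose in the WT response, and Gpm6a fell in the KO response (-1.20). Of 10 cycling-cell markers, 2 were called higher in KO at baseline, Ccnb1 (5.65, edgeR adjusted p 0.0474) and Ccna2 (5.00, 0.038), both cyclin genes, with summed levels of 62.7 to 164 CPM against 28.99 to 34.7 CPM in WT. They thus moved with the baseline differences of the ligands and receptors. All 10 were called higher in the WT response, although WT replicates 2 and 4 were near the baseline level, and 10 of 10 without these libraries. Of the 10, 1 was called higher in the KO response, and none without KO replicate 10 after PHx. For the difference of the responses none was called, against 5 lower without KO replicate 10 after PHx. No marker of these lists was at 0 over a whole group, and their part in the ligand and receptor results was not tested.

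The genes whose level followed each member most closely were ranked by Pearson's r of log2(CPM + 1) over all 20 libraries, as a description, since the libraries fall into groups and pairs from 1 mouse. Egfr was followed by Lifr (r 0.94), 5830473C10Rik (0.94) and Hc (0.93), and Met by Golim4 (0.92), Mrpl1 (0.90) and Hook3 (0.90). Hbegf was followed by Pde1b (0.97), Lif (0.97) and B4galt6 (0.97), Areg by Sema3c (0.93), Acsbg1 (0.93) and Plcl1 (0.92), and Btc by Myo9b (0.89), Tax1bp3 (0.89) and Enc1 (0.89). Hgf was followed by Rasa2 (0.94), Vcan (0.93) and Stx11 (0.92), and Ereg by Slit3 (0.93), Vcan (0.91) and Cfap300 (0.91), so that Vcan stood in both. Tgfa was followed by BC037034 (0.84), Tpra1 (0.81) and Brat1 (0.80), Erbb3 by Cdc42bpb (0.83), Epb41l5 (0.79) and Arhgef10l (0.78), and Egf by Gm12033 (0.78), Lrrc28 (0.76) and Fsd2 (0.75). With the group means removed, r was 0.87 for Egfr with Lifr and 0.91 for Hbegf with Pde1b, and 0.65 for Met with Mrpl1 and 0.64 for Met with Hook3.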

How the data were processed

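RNA with an integrity number above 8 went into poly(A) TruSeq libraries (1000 ng), sequenced paired-end on an Illumina NovaSeq, per the series' design text. That text names FastQC and fastp 0.20.0, alignment to mm10 and counting of uniquely mapped reads, whereas the submitters' processing notes name Trimmomatic 0.36 and FastQC 0.11.5. The aligner, counter, strand setting and annotation are not given in the sources used here. The authors deposited raw, unscaled counts for each Ensembl gene in 1 file per library. Uniquely mapped reads understate genes with near-identical copies, and without a known strand setting antisense reads cannot be separated.

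Symbols, coordinates and exon lengths came from GENCODE release M21, which placed 46091 of 46603 identifiers by symbol. Counts were tested with edgeR 4.0.16 (quasi-likelihood, two-sided) in R 4.3.3 on all 20 libraries with 4 group means, TMM factors, filterByExpr and Benjamini-Hochberg adjustment over the 14661 genes tested, and the procedure was tested on simulated data. CPM are counts scaled to the TMM-adjusted total of their library. A group at 0 was set to a floor of 3 counts over the group, which covers counting error only. Alternatives were other scalings and filters, DESeq2 1.42.0, only the groups compared, a time-point term, a mouse block and each library left out. Leaving out WT replicates 2 and 4 after PHx together was added after seeing the data and is not in the counts of alternatives given.

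The members and lists were chosen with earlier results of these data known. All 10 members are named, with 3 genes most like each, and up to 4 called genes of a pathway list per comparison, those with the largest change. Of the genes this rule names, 1 is counted in its list but not reported here.

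Pairing comes from the labels, where a number marks 1 animal at both stages (9 mice; WT baseline replicate 1 carries no such number). Residual correlations ran from -0.063 to 0.195 for the same mouse (median 0.048) and from -0.229 to 0.285 for the 41 other pairs. No 2 libraries held identical counts.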

Additional observations from a re-analysis of the deposited data

Results flagged for a closer look

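Areg in KO replicate 8 after PHx, a liver collected at 48 h, had 6.96 CPM, far from the next highest library of its group at 1.53 CPM. The gap is more of the group's range than 0.71, the limit set for 5 values. It was the 1 value singled out among 39 sets of a gene and a group, and chance alone singles out about 1 in 20. Without this library the genotype difference of Areg after PHx was 2.55 on the log2 scale (adjusted p 0.0545).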

How the results depend on the processing

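The number of members called moved by more than 1.5 times in these cases. For KO against WT at baseline it went from 5 to 3 with library size alone, after PHx from 5 to 1 with only the groups compared, in the WT response from 3 to 5 in DESeq2, and for the difference from 0 to 1 in DESeq2. With 1 library left out it ran from 3 to 5 after PHx and from 1 to 4 in the WT response. The lowest counts came without KO replicate 7 or 8 after PHx, and without WT baseline replicate 3 or 5 or WT replicate 2 or 3 after PHx. With only the groups compared, 1345 genes were called after PHx against 3544. With WT replicates 2 and 4 after PHx both left out, chosen after seeing the data, the WT response went from 3 members to 0, while KO against WT after PHx had 6 and the difference 0. The cause of these shifts was not tested. With the mouse as a replicate block, 2 members were called in the WT response, where Hbegf was lost (2.48, adjusted p 0.12), 3 in the KO response and 0 for the difference. The block changed no other member's call. Apart from that added alternative, of 945 values of a member under an alternative, 853 kept their sign and side of the threshold, 38 lost a call, 11 gained one and 43 changed sign while called in neither setting. Of 1403 values of named pathway genes, 117 lost the call, and of 576 list counts 76 moved by more than 1.5 times. The filter of 1 CPM in 5 libraries left Areg and Egf untested. With only the groups compared Areg was not tested for KO against WT at either stage, and after PHx Egfr, Hgf and Met lost their calls in that fit. Depth limits Areg, Egf and Ereg, with as few as 0 to 3 counts in single libraries.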
